A study of Mus musculus with 4 samples.

Results

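The genes described here are 10 genes of the AP-1 transcription factor group: Fos, Fosb, Fosl1 and Fosl2 of the Fos family, Jun, Junb and Jund of the Jun family, and the related factors Atf3, Batf and Maff. All 10 were found by symbol among the 21436 protein-coding genes of a RefSeq gene table (GRCm38.p6) that had a strand. Of the 32011 distinct open regions in the data, 49 belonged to these genes, 9 at their 5' ends and 40 farther away. Bulk ATAC-seq, in which the Tn5 transposase cuts open chromatin, was performed on non-irradiated organoids grown from submandibular salivary gland of C57BL/6 mice (mSGOs). There were 4 samples, 2 of passage 1 and 2 of passage 2. Each passage held 1 sample labelled as from a 12-week-old and 1 from a 3-month-old animal. These labels give about the same age in different units. All shared Matrigel and WRY medium, which contains EGF, FGF2, N2, insulin, dexamethasone, the kinase inhibitor Y27632 and medium conditioned with R-spondin1 and Wnt3a. The authors deposited 1 list of regions, which was taken to join the 4 samples. No sample had a value of its own, so the spread between samples and their depth are unknown. No comparison between passages or between the age labels was possible, and every value below is a description with no test.

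AP-1 is a dimer of basic leucine zipper proteins, in which a Fos protein pairs with a Jun protein, or Jun proteins pair with each other. Its binding site falls under the word TGANTCA, in which N stands for any base. Fos, Fosb, Jun and Junb are immediate early genes, which are switched on within minutes by growth factors and stress through MAP kinases, and Atf3 responds to stress. In epithelia, AP-1 is known for its part in proliferation, wound repair and differentiation.

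Each region had an IDR score, a fold of signal over the local background and a q-value, all from the authors' processing. The IDR score rises with the agreement of a peak between replicates, up to 1000. Which replicates it compared is not given in the sources used here. A region with several summits was counted once and carried the values of its strongest summit. It was called a 5' end region where its midpoint lay within 1 kb of the outermost 5' end of a protein-coding gene, and a distal region where it lay farther from every such end. Distal regions were assigned to the nearest protein-coding 5' end, which gives position and not control. The submitters' processing notes name GRCm39, but a region lay within 1 kb of 38.3% of protein-coding 5' ends of GRCm38.p6 and of 5.04% of those of GRCm39, so the list was read as GRCm38. The labelled tissue was checked at marker genes. A 5' end region was present at 5 of 7 epithelial genes (all but Krt18 and Trp63), at 1 of 5 immune genes (Cd68), and at 0 of 4 endothelial and 0 of 5 fibroblast genes. Distal regions did not separate these lists in the same way, with medians of 2 for epithelial, 2.5 for endothelial, 1 for fibroblast and 0 for immune genes, and 7 at the endothelial gene Cdh5. Of the epithelial genes without a 5' end region, Trp63 had 10 distal regions and 7 inside the gene, and Krt18 had 1 and 0.

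Sequence was taken from the RefSeq promoter table (GRCm38.p6), which holds 250 bases before and 50 after each start. It matched 9 of the 10 genes, all but Fosl1, with 11 windows, since Maff has 3 starts. The stretches just upstream of 6 starts are shown because they set genes whose start was covered by an open region (Jun, Fos, Atf3, Junb and the second start of Maff) beside Batf, which had no region. They read 5' to 3' in the direction of the gene and end at the base before the start. Jun lies at chr4:95052223-95052422 (minus strand), Fos at chr12:85473650-85473889 (plus), Atf3 at chr1:191183334-191183533 (minus), Junb at chr8:84978749-84978948 (minus), Maff at chr15:79347400-79347519 (plus) and Batf at chr12:85686520-85686719 (plus). Capitals mark, on either strand, TGACGTCA (the cAMP response element), TGACNTCA, TGACG (the first bases of that element) and CCAAT, and, on the strand of the gene, TATAAA.
Jun: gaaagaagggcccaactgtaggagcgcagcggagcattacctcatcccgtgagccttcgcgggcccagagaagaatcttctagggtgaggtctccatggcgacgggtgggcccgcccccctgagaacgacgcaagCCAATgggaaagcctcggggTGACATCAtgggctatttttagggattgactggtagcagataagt
Fos: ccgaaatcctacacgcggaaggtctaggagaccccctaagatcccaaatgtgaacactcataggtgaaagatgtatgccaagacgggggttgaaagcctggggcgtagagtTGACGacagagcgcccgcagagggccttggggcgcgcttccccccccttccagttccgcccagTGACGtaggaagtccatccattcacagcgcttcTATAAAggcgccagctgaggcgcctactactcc
Atf3: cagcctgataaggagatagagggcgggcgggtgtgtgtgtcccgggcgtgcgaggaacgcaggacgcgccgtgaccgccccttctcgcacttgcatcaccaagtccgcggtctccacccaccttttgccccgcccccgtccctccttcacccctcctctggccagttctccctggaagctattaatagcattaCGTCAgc
Junb: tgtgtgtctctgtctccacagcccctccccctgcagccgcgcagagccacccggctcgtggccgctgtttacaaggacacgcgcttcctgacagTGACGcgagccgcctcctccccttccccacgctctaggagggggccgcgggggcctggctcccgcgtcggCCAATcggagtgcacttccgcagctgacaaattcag
Maff: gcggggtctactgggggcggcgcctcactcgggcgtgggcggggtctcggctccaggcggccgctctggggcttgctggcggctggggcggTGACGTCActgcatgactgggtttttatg
Batf: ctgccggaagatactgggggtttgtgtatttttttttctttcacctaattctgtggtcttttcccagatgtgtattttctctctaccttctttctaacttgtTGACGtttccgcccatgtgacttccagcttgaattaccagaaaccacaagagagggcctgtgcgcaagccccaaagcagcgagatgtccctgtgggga

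No window of the 9 genes held the word TGANTCA, which takes in the AP-1 site and, since N is any base, other sequences too. The word stood in 7.81% of all 32851 promoter windows and in 5.66% of the 8363 whose start was covered by a region. The Jun window held TGACATCA 45 bases upstream of the start, inside its region. This variant of the AP-1 site differs from the cAMP response element in a single base and is a known site at which Jun protein acts on its own gene. TGACATCA also stood 45 bases upstream of the third start of Maff, and TGACGTCA stood 29 bases upstream of the second. The word TGACNTCA, which takes in both, was found in 3 of the 11 member windows and in 8.83% of all windows. The full TGACGTCA was found in 1 of the 11 and in 1.79% of all. The shorter TGACG stood in 7 of the 11 windows, from 6 genes, and in 20.8% of all windows and 37.1% of covered ones. In Fos it began 129 and 66 bases upstream of the start, in Junb 106 bases, in Fosb 60 bases and in Atf3 7 bases. In Batf it began 98 bases upstream, and the Batf and Fosb words were the ones outside any region. For Fosb the start in the promoter table (chr7:19310045) is not the outermost 5' end, which is at 19310118. Its TGACG word, at 19310101-19310105, therefore lay inside the gene. TGACNTCA and TGACG were chosen after the windows had been read.

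TATAAA, the word bound by the TATA-binding protein, began 33 bases upstream of the start in Fos. In Junb it began at the start itself. These were 2 of the 11 windows, beside 8.32% of all windows and 3.40% of covered ones. CCAAT, the word of the factor NF-Y, stood 65 bases upstream of the start in Jun and 36 bases upstream in Junb, and 5 bases past it, on the other strand, in Atf3. It was present in 37.4% of all windows. GGGCGG, the word of Sp1, stood in 8 of the 11 windows and in 35.7% of all and 69.2% of covered windows. The CArG box, to which serum response factor binds, was in none of the 11 windows and in 1.63% of all. The serum response element of Fos is known to lie farther upstream than this window reaches. A match describes the letters of the window and was not a test of binding.

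A 5' end region was present at 8 of the 10 genes, all but Jund and Batf, and the share over all protein-coding genes was 38.3%. A region covered the outermost 5' end itself in 5 of the 10, namely Fos, Fosl1, Jun, Junb and Atf3, beside 32.4% of all genes. The 9 regions (Fos had a pair) ranged in fold from 3.55 to 12.5 with a median of 6.88. The 8174 regions at all protein-coding 5' ends had a median fold of 7.90 with quartiles of 6.05 and 10.6, so 6 of the 9 lay below that median and 3 above it. By the 1 kb limit, the share of these genes with a region was above that of all genes, which was not tested. At Fosb, Fosl2 and Maff that region did not cover the outermost 5' end. The folds lay mostly below the median of all 5' end regions. Of the 9, 4 (44.4%) had 4 or more summits, beside 16.8% of all 5' end regions, and 5 of the 9 (55.6%) had an IDR score of 1000, beside 57.2%.

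**Figure D1:**
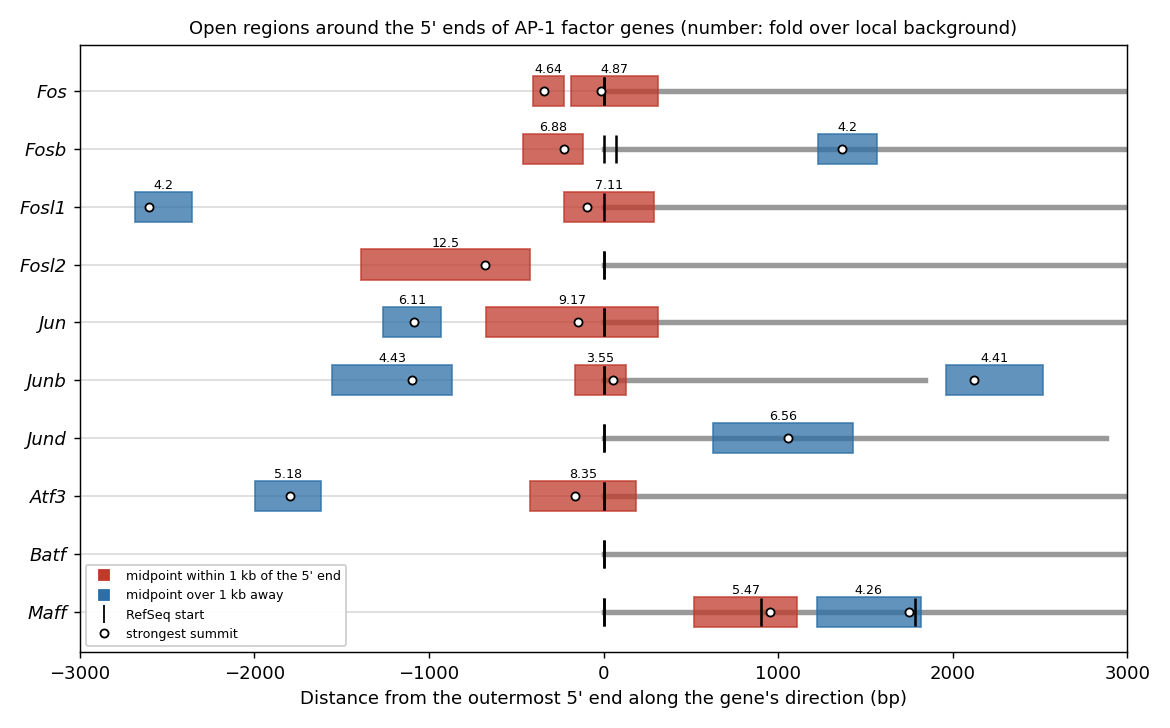
Open regions near the outermost 5' end of each AP-1 factor gene, with distance along the gene on the x axis (bp, minus is upstream) and 1 row per gene. Red boxes are 5' end regions, blue boxes have their midpoint over 1 kb away, ticks are RefSeq starts, circles are strongest summits, grey bars are the gene, and the printed number is the fold. The red boxes of Fos, Fosl1, Jun, Junb and Atf3 cover the outermost start, those of Fosb and Fosl2 lie before it and that of Maff after it, and the row of Batf is empty.

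Fos (chr12:85473890-85477274, plus strand), the founding member of its family, had 2 regions at its 5' end. The first was 182 bp wide, ran from 406 to 225 bp upstream of the start, and had a fold of 4.64 with an IDR score of 650. The second was 500 bp wide, ran from 186 bp upstream to 313 bp into the gene, and had a fold of 4.87 with an IDR score of 839 and a summit 13 bp upstream of the start. A gap of 38 bp, from 224 to 187 bp upstream, separated them, and the Fos sequence above crosses it. Both folds were low for a 5' end, with 5.6% and 8.07% of such regions lower. The TATAAA word and both TGACG words lay in the second region.

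Fosb (chr7:19302696-19310118, minus strand), which encodes a close relative of Fos, had 1 region of 345 bp whose edges lay 459 and 115 bp upstream of the outermost start. Its fold was 6.88 and its IDR score 1000. The region did not cover the start, and 63 bases of the 300-base promoter window lay in it. Fosl1 (chr19:5447698-5455938, plus strand) encodes Fra-1, a Fos protein without the long activation domain of Fos. Its region of 515 bp ran from 225 bp upstream to 289 bp into the gene, with a fold of 7.11 and an IDR score of 1000. Fosl2 (chr5:32136472-32157840, plus strand), which encodes Fra-2, had the highest fold at a 5' end among the 10 genes. That region was 970 bp wide with 6 summits and a fold of 12.5, and 86.5% of 5' end regions were lower. It ended 419 bp before the start, so the start base was not covered.

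In the Jun family the 3 genes differed in their 5' ends. Jun (chr4:95049036-95052222, minus strand), whose protein is the central partner of AP-1 dimers, had the widest region of the 9. It measured 988 bp with 4 summits, ran from 673 bp upstream to 314 bp into the gene, and had a fold of 9.17 with an IDR score of 1000. The noncoding gene Junos starts beside Jun, and its 5' end lay 84 bp from the midpoint of that region, nearer than that of Jun itself at 179 bp. Junb (chr8:84976909-84978748, minus strand), which encodes a weaker activator that can oppose Jun, had the lowest fold. Its region was 293 bp wide with a fold of 3.55, lower than all but 0.930% of 5' end regions. Its IDR score of 540 was the lowest in the list, shared by 41 of the 32011 regions.

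Jund (chr8:70697739-70700616, plus strand), the Jun family member made in most resting cells, had no region at its 5' end by the 1 kb limit. A region of 803 bp with 5 summits lay inside the gene, from 626 to 1428 bp past the 5' end, with a fold of 6.56 and an IDR score of 1000. Its midpoint stood at 1027 bp, just outside the limit, and with a limit of 2 kb, or where any base of a region within 1 kb counted, Jund was included and the count was 9 of 10, beside 41.4% and 39.1% of all protein-coding genes under the same rules. The gene table lists 2 RefSeq transcripts for Jund, and 1 start was in the promoter windows, so whether the region lay at another start was not tested. The listed Jund window had a GC content of 46.7% and a CpG ratio (observed over expected) of 0.184, the lowest of the 11.

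Atf3 (chr1:191170296-191183333, minus strand) encodes a stress factor that binds cAMP response elements and pairs with Jun proteins. Its region of 608 bp had 4 summits, covered the start from 422 bp upstream to 185 bp into the gene, and had a fold of 8.35 with an IDR score of 1000. Maff (chr15:79346621-79359078, plus strand) encodes a small Maf protein, which binds DNA but lacks an activation domain. Its first start was not covered. A region of 590 bp with a fold of 5.47 covered the second start, and one of 596 bp with a fold of 4.26 covered the third, which counts among the distal regions by its distance from the first start. Batf (chr12:85686720-85709087, plus strand), known for its role in T and B cells, had no region at its 5' end, in the gene or nearest to it. The nearest regions to its start lay 105 kb upstream and 59.2 kb downstream.

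Base composition was set beside these differences. Over all promoter windows, a region covered the start in 25.5%, with 56.7% of the 11765 windows of CpG ratio 0.6 or more and 8.04% of the 21086 below. Of the member windows, 6 of 11 were covered, 4 of the 6 with the higher CpG ratio and 2 of the 5 with the lower. The covered windows of Fos (0.775), Junb (0.666), Atf3 (0.867) and the second Maff start (0.752) had ratios above the limit, and those of Jun (0.594) and the third Maff start (0.526) lay just under it. The uncovered windows of Jund (0.184), Batf (0.487) and the first Maff start (0.263) lay under it too. Fosl2 (1.03) and Fosb (0.735) had high ratios with the start uncovered, and in both the open region lay upstream. The part of base composition in the presence of a region was not tested.

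**Figure D2:**
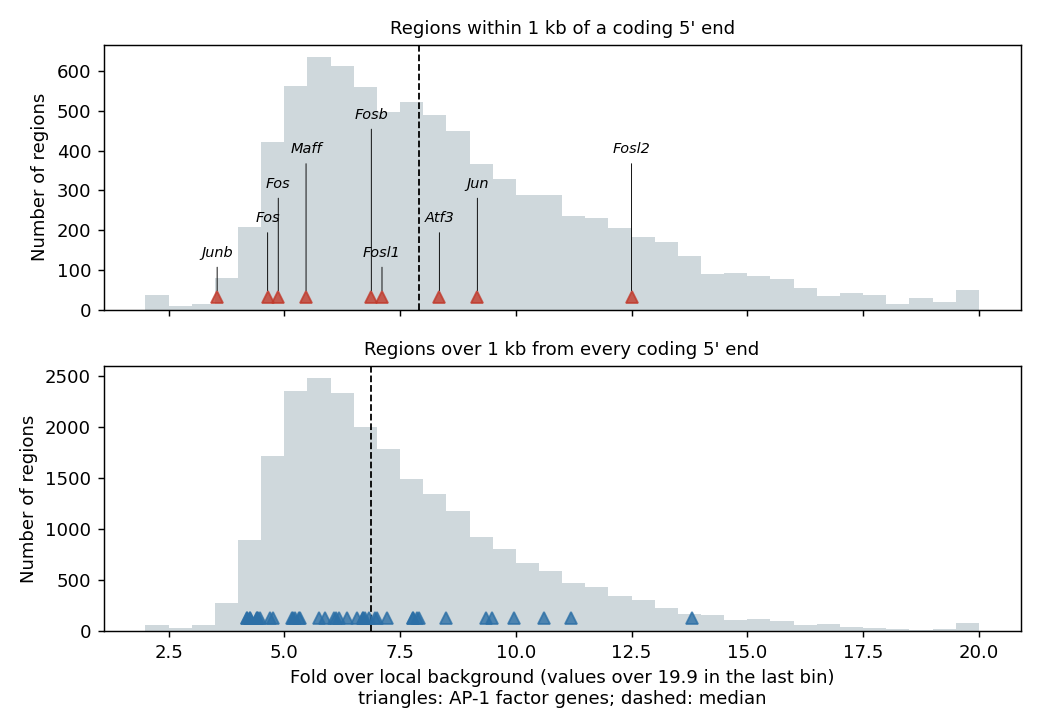
Histograms of the fold over local background (x axis, ratio) of all regions at protein-coding 5' ends (top) and all distal regions (bottom), with the number of regions on the y axis, the median as a dashed line and the regions of AP-1 factor genes as triangles. At 5' ends, Junb at 3.55 is farthest left and Fosl2 at 12.5 farthest right, with 6 of the 9 triangles left of the median of 7.90. Among distal regions, 26 of the 40 triangles lie left of the median of 6.87.

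Inside the genes lay 6 regions, 2 in Maff and 1 each in Fos, Fosb, Fosl1 and Jund. With 5 of the 10 genes holding at least 1 region, beside 39.5% of all protein-coding genes, the count was near the background. The AP-1 factor genes are short, with a median length of 7.83 kb beside 17.6 kb for all.

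Distal regions were more numerous. At least 1 was nearest to 9 of the 10 genes, all but Batf, beside 40.4% of all protein-coding genes. At least 4 were nearest to 5 of the 10, namely Jun, Atf3, Fosl2, Fos and Fosb, beside 9.25% of all. The median was 3 regions per gene and the mean 4, while over all 21436 genes the median was 0 and the mean 1.11. The length of sequence nearest to a gene's 5' end, which limits how many regions it can be given, had a median of 55.7 kb for the 10 genes and 50.4 kb for all. Per 100 kb of such sequence the 10 genes had a median of 5.32 distal regions and a mean of 7.12, and all genes had a median of 0 and a mean of 1.27. These values give each gene the same weight whatever the length of its sequence. Junb had 20.9 in 9.58 kb, while Jun had 4.15 in 289 kb and Fosl2 had 2.24 in 267 kb.

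The counts rest on the choice of genes that compete for a region. With genes of every type as candidates, 14 of the 40 distal regions stayed nearest to an AP-1 factor gene. The other 26 were all nearest to a long noncoding RNA gene. By construction none could pass to another protein-coding gene. Over all distal regions, 44.8% stayed nearest to a protein-coding gene, beside 35.0% of these 40. Under that choice the count of Jun went from 12 to 0, of Fosl2 from 6 to 0, of Atf3 from 8 to 3 and of Fos from 5 to 2, while those of Fosb (4), Junb (2), Fosl1, Jund and Maff (1 each) were the same. The 12 regions of Jun passed to Junos (5), Gm12708 (5) and Gm32240 (2). Junos starts beside Jun, so the 5 that passed to it were nearly as close to Jun. Of these, 1 lay 23373 bp from the Junos end and 23468 bp from that of Jun. Another lay 53212 bp from the Junos end and 53307 bp from that of Jun.

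Of the 40 distal regions, 33 lay upstream of their gene and 7 downstream, 28 within 50 kb and 9 beyond 100 kb. Their folds ran from 4.20 to 13.8 with a median of 6.28, beside 6.87 for all 23760 distal regions, and 26 of the 40 were below that value. An IDR score of 1000 was given to 18 of them (45.0%, beside 40.9%), and 10 had 4 or more summits (25%, beside 9.25%). Of the 40, 6 lay within 2 kb of the 5' end and are thus near the limit that made them distal. The lowest −log10 q of any of the 49 regions was 8.48.

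Jun had the most, with 12, and 132 protein-coding genes had more. All 12 lay upstream, between 1.10 and 238 kb from its 5' end, in the 505 kb that separate it from Fggy. Downstream, where the next coding gene Mysm1 starts 73.1 kb away, the nearest region of the list stood 50.6 kb from Jun and so beyond the midpoint between both genes. The strongest of the 12 was at chr4:95178563-95178890, 127 kb upstream, with a fold of 11.2 and an IDR score of 1000. The next was 109 kb upstream with a fold of 10.6. A group of 5 stood between 107 and 136 kb, and another of 4 between 23.5 and 53.3 kb, with folds of 4.48 to 6.96. The nearest, at 1.10 kb, had a fold of 6.11 and lies just outside the limit of 5' end regions.

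Junb lies between close neighbours, Hook2 10.0 kb upstream and Prdx2 9.13 kb downstream. It had 1 distal region on each side, with folds of 4.43 at 1.21 kb upstream and 4.41 at 2.24 kb downstream. All 3 regions of Junb therefore had folds below 4.5. In 9.58 kb of nearest sequence this gave 20.9 distal regions per 100 kb, more than in 99.9% of genes, though the 2 regions lay under 3 kb from the start. Jund had only the region inside the gene.

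Atf3 had 8 distal regions, all upstream, between 1.81 and 41.6 kb from the 5' end, in the 135 kb up to Nenf. The strongest distal region of any of the 10 genes was among them, at chr1:191204719-191205224, 21.6 kb upstream, with a fold of 13.8 and a −log10 q of 88.6. Of all distal regions, 96.3% had a lower fold. Its neighbours at 10.3 and 32.8 kb had folds of 8.50 and 9.97, and all 3 had IDR scores of 1000. The remaining 5 had folds between 4.26 and 6.75. Of the 8 distal regions, 5 were nearer to the 5' end of the long noncoding RNA gene D730003I15Rik than to that of Atf3. The strongest region was among these 5, and those at 41.1 and 41.6 kb lay 21 and 502 bp from the D730003I15Rik end. With 76.7 kb of nearest sequence, Atf3 had 10.4 distal regions per 100 kb, and 402 protein-coding genes had more in number.

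Fos had 5 distal regions, 3 upstream and 2 downstream, and each had a higher fold than either of its 5' end regions. Upstream they stood at 36.6 kb (fold 7.79), 21.8 kb (5.31) and 18.6 kb (9.36). Downstream they stood at 12.2 kb (7.92) and 23.9 kb (7.01). The region at 21.8 kb was 910 bp wide with 6 summits. The regions at 21.8 and 36.6 kb lay 83 and 863 bp from the 5' ends of the long noncoding RNA genes Gm38543 and Gm40477, and the one at 18.6 kb was also nearer to Gm38543 than to Fos. The 2 downstream regions, which stayed nearest to Fos with genes of every type as candidates, had higher folds than both of its 5' end regions as well.

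**Figure D3:**
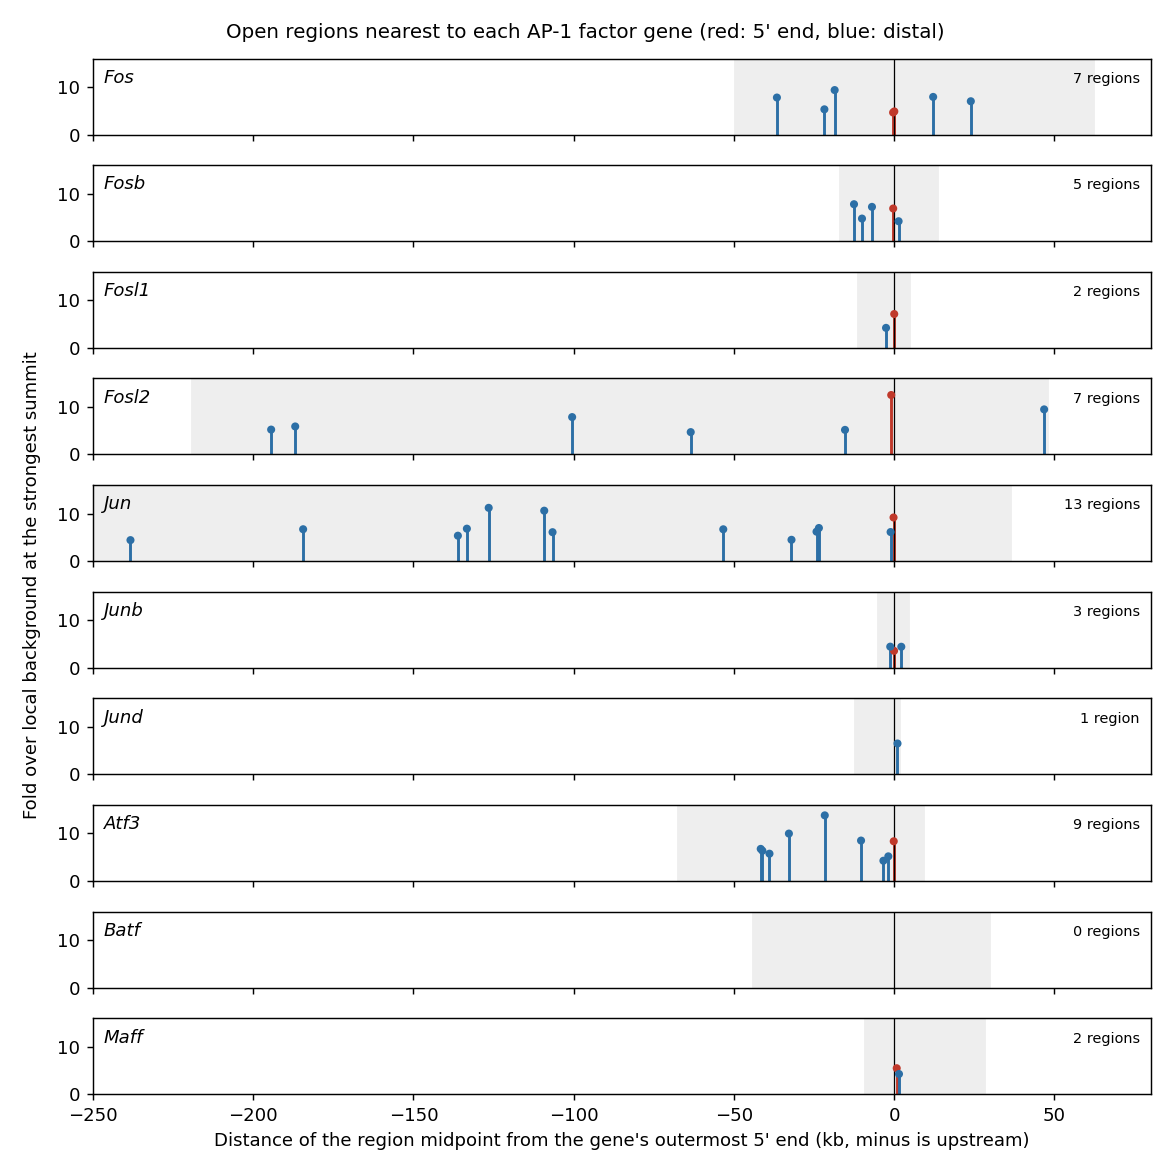
All 49 regions of the AP-1 factor genes, 1 panel per gene, with the distance of the region midpoint from the outermost 5' end on the x axis (kb, minus is upstream) and the fold over local background on the y axis. Red stems are 5' end regions, blue stems distal regions and grey bands the sequence nearest to the gene. The stems of Jun and Atf3 stand upstream of the gene apart from the red stem at the start, Fos has stems on both sides, and the band of Batf is empty.

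Fosb had 4 distal regions in 30.7 kb of nearest sequence. Those at 6.91 and 12.5 kb upstream had folds of 7.22 and 7.78 and IDR scores of 1000, and the one between them, at 10.0 kb, had a fold of 4.76. The fourth lay in the gene 1.4 kb past the 5' end, with a fold of 4.20. Fosl1 had 1, at 2.52 kb upstream with a fold of 4.20. Fosl2 had 6 in 267 kb, 5 of them upstream between 15.3 and 194 kb with folds of 4.70 to 7.86, and 1 downstream at 46.8 kb with a fold of 9.48. All 6 were nearer to the 5' end of a long noncoding RNA gene, and the one at 15.3 kb lay 66 bp from that of Gm36665. For Fosl2, unlike Fos, the region before the start was stronger than each distal one.

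Fos and Batf lie on the same chromosome, 213 kb apart, with Jdp2 between them, which encodes a repressor that pairs with Jun proteins. Beyond 1 kb from the Fos start, the interval held 5 distal regions, 2 nearest to Fos and 3 nearest to Jdp2. Jdp2 had no 5' end region, and the highest fold of its 3 distal regions was 8.28. Both Jdp2 and Batf thus lacked a region at the 5' end, while Fos had 2.

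**Figure D4:**
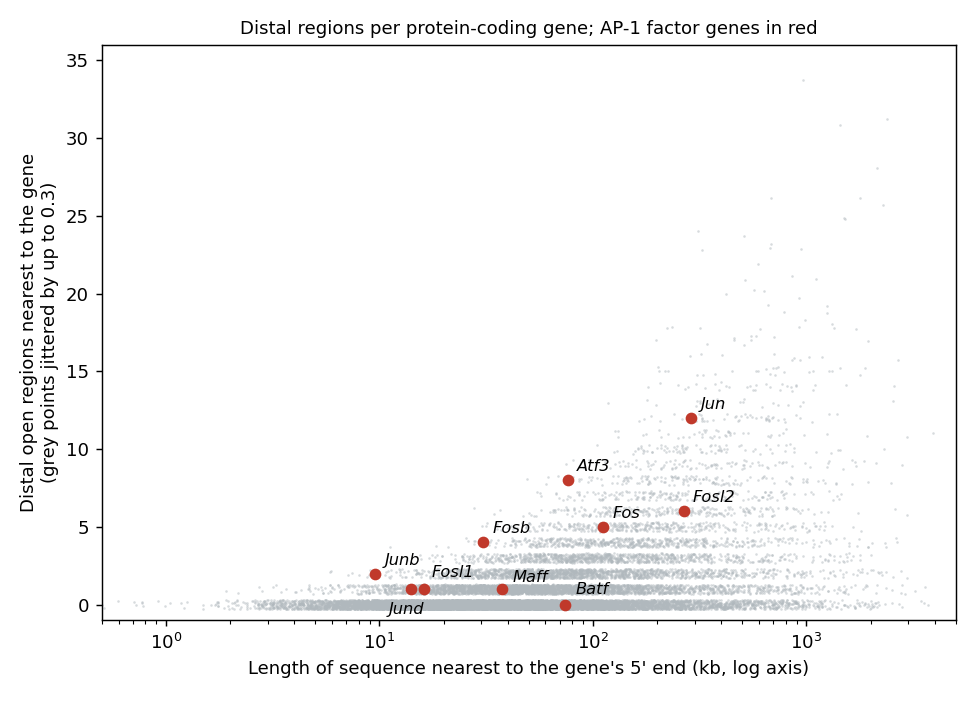
Number of distal regions nearest to each protein-coding gene (y axis) against the length of sequence nearest to its 5' end (x axis, kb, log axis), with all 21436 genes as grey points jittered by up to 0.3 and the AP-1 factor genes as red points. Jun stands at 12 regions in 289 kb, Atf3 at 8 in 76.7 kb, Junb at 2 in 9.58 kb and Batf at 0 in 73.9 kb.

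The values moved with how strict the list was made. In the 16006 regions with the lowest q-values, 5 of the 10 genes kept a 5' end region, namely Fosb, Fosl1, Fosl2, Jun and Atf3, beside 25.9% of all genes. The same 5 genes kept one among the 14422 regions with an IDR score of 1000, beside 24.0%. Fos, Junb and Maff had theirs only in the full list. Of the distal regions, 19 of 40 were in the stricter group by q-value, 5 of Fos, 5 of Jun, 4 of Atf3, 2 each of Fosb and Fosl2, and 1 of Jund. This share of 47.5% was near that of all distal regions, 45.9%. With an IDR score of 1000 the 18 of 40 (45.0%) again stood near the 40.9% of all. Neither 5' end region of Fos was in a stricter group, while all 5 of its distal regions were in that by q-value and 3 in that by IDR score.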

How the data were processed

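Nextera libraries from 4 organoid samples were sequenced as paired-end reads, and the authors ran the ENCODE ATAC-seq pipeline and made a single peak list. That it is the consensus of all samples was assumed, since neither its lines nor its regions match the number of peaks given in the study. Its filters and version are not given in the sources used here, and the submitters' processing notes name HOMER and GRCm39. Per line, the deposited list holds an IDR score, a fold (ratio) over local background, and a −log10 p-value and −log10 q-value, all made in the authors' processing. Total counts per sample were not used here, so depth is unknown.

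The 69545 lines were joined by coordinates into 32011 regions, covering 13.8 Mb, each with the values of the summit of highest −log10 p. Gene ends came from the RefSeq gene table of GRCm38.p6. Strand came from the RefSeq promoter table (17491 genes) or, by name and chromosome with no coordinate, from GENCODE release 39 (3945 genes, Fosl1 among them). Where both gave a strand, 99.4% of 22109 genes agreed. Of 21883 protein-coding genes, 21436 had a strand. Regions were assigned by the outermost 5' end of a gene only, and regions beyond the outermost ends of a chromosome were not assigned. Positions of words were counted from the starts of the promoter table. Coordinates count from 1. The genes and lists were chosen with earlier results of these data known. All 10 AP-1 factor genes are named, and of the other lists the genes that neighbour them or had the most or fewest distal regions, with further names chosen after their values were seen. A further gene of the lists is not reported here. Alternatives changed the distance, the part of a region that counts, the gene types and the stringency. Sequence of the regions outside promoter windows was not analysed here. Python 3.11.15, numpy 2.4.6, pandas 2.3.3 and matplotlib 3.10.9 were used.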

Additional observations from a re-analysis of the deposited data

How the results depend on the processing

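The number of AP-1 factor genes with a 5' end region, 8 of 10, was 6 with a limit of 500 bp (35.3% of all protein-coding genes), 9 with 2 kb (41.4%), 9 where any base within 1 kb counted (39.1%), 8 by the strongest summit (38.3%) and 8 with every start of the promoter table (41.0%). It was 5 in the 16006 regions with the lowest q-values (25.9%), 5 with an IDR score of 1000 (24.0%) and 5 where the region had to cover the outermost 5' end (32.4%). Every start and the covering of the end were chosen after seeing the data. The 6 regions inside the genes were 9 by any base, and the count over all genes also rose, from 16716 to 20712. They were 2 in the lowest-q regions and 2 with an IDR score of 1000, where 49.0% and 43.9% of the regions inside all genes stayed. The 40 distal regions were 34 beyond 2 kb, 30 within 100 kb, 19 in the lowest-q regions, 18 with an IDR score of 1000 and 14 with genes of every type as candidates. Over all genes these settings kept 95.8%, 76.0%, 45.9%, 40.9% and 44.8% of distal regions. Each stricter list holds fewer regions by construction. Single samples could not be left out, since the list gives no values for them. No paired analysis was possible because the samples share a single list. Depth per sample is unknown, so a gene without a region, such as Batf, had none detected in this list, and its chromatin is not shown to be closed.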

Other observations

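Genes that act with AP-1 were read in the same way, with the share of 38.3% of protein-coding genes having a 5' end region and the median of 0 distal regions as background. Among 10 related bZIP factors, 6 (60.0%) had a 5' end region, all but Jdp2, Batf2, Batf3 and Mafg, and the median number of distal regions was 1.5. Maf, a large Maf factor, had the most with 16, followed by the repressors Bach2 with 12 and Bach1 with 11, the partners of small Maf proteins, while Batf2 and Atf7 had 0. Batf and both of its paralogs, Batf2 and Batf3, were therefore without a 5' end region. Among 11 MAP kinase pathway genes, 9 (81.8%) had one, all but Mapk3 and Map3k1, with a median of 1 distal region. Map3k1, an upstream kinase of the JNK branch, had 8, the most of that list, and Mapk3, Map2k1, Map2k2 and Map2k7 had 0.

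Of serum response factor and its partners, which drive immediate early genes, 3 of 6 (50.0%) had a 5' end region, and Srf, Elk3 and Elk4 did not. Their median was 4 distal regions, from 0 for Elk1 to 9 for Elk3. The 10 other immediate early genes included 6 (60.0%) with a 5' end region, and Egr2, Egr3, Nr4a1 and Zfp36 had none. Every one of the 10 had at least 1 distal region, with a median of 4.5, from 1 for Zfp36 to 11 for Ier5. Of 12 known targets of AP-1, 6 (50.0%) had a 5' end region. The matrix metalloproteinase genes Mmp3, Mmp9, Mmp10 and Mmp13 had none, nor had Ccnd1 and Ivl, while Plau, Plaur, Timp1, Hbegf, Cd44 and Vim had one. The adhesion receptor gene Cd44 had the most distal regions of that list with 10, and Mmp3 and Mmp9 had 0. These counts are descriptions of 1 list of regions, and the lists were not tested against other genes.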
